A study of Mus musculus with 26 samples.

Results

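Microglia sorted from the nucleus accumbens (NAc) of stressed wild-type mice were compared with microglia sorted from the medial prefrontal cortex (mPFC) of mice of the same kind. The comparison rests on the 3 arrays labelled WT_NAc microglia_R-SDS(sus) and the 3 arrays labelled WT_mPFC microglia_R-SDS(sus), 6 of the 26 arrays of the series, and the arrays were chosen by their labels alone. The mice were C57BL/6 and CX3CR1EGFP/+, so that 1 copy of the fractalkine receptor gene carries green fluorescent protein, and every group of the series shares this allele. The mice had met an aggressor repeatedly (repeated social defeat stress, R-SDS), and the labels call them susceptible. Perfusion followed the last session by 90 min. A 1.5 mm punch was taken from each region, EGFP-positive cells were sorted by flow cytometry, and cells of 3 to 6 mice were pooled to give 500 pg of RNA per array. The ages of the mice are not given in the sources used here. Set beside it are the same regional comparison in naive wild-type mice, which were only moved between cages, and in TLR-DKO mice, CX3CR1EGFP/+ mice whose name the labels do not spell out and which the published study describes as lacking Tlr2 and Tlr4, after R-SDS (labelled resilient) and naive.

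Microglia are the resident macrophages of the brain parenchyma. They survey synapses, clear debris and respond to cytokines, nucleotides and stress hormones. The mPFC is a cortical region that takes part in the control of mood and fear, and the NAc is the ventral part of the striatum and belongs to the circuits of reward. The CX3CR1 promoter is active in microglia and also in border macrophages, so perivascular macrophages, which line the vessels and express Mrc1 and scavenger receptors, can enter an EGFP gate. The comparison asks whether microglia of the regions differ after defeat stress.

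Levels below are log2 of the processed signal after each array was centred on its 75th percentile, and a difference is NAc minus mPFC on that log2 scale, negative where the NAc was lower. That percentile lay between 80.7 and 249 signal units on the 6 arrays, and 50.3% to 64.4% of spots were well above background. The dimmest array was mPFC replicate 3, which stood apart from the other arrays. Its mean correlation with the other 25 arrays was 0.79, against 0.87 to 0.91 for the rest of the 6, and on the first principal component of the 6 arrays (46.0% of the variance) it lay at 204 while the others lay between -63.0 and -22.0. Every slide held a single region, so slide and region cannot be told apart. Replicates 1 and 2 of both regions were scanned on one day and replicate 3 of both on another. The median SD between arrays was 0.49 in the NAc and 0.69 in the mPFC.

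The label was checked against the markers of its cells. All 24 homeostatic microglia genes were well above background on all 6 arrays. Cx3cr1, the fractalkine receptor gene that drives EGFP, had levels of 8.29, 8.10 and 9.70 in the mPFC and 8.04, 8.30 and 8.81 in the NAc. The groups overlapped (-0.31 ± 0.34, SE). Of the markers that define the neurons of each region, Slc17a7, the vesicular glutamate transporter of cortical projection neurons, was above background on 1 of 3 mPFC and 0 of 3 NAc arrays. The cortical factors Tbr1 and Neurod6 were above background on 1 and 0 of 3 mPFC arrays and on 1 and 0 of 3 NAc arrays. Among striatal markers, the dopamine receptor gene Drd1 was above background on 1 and the enkephalin precursor gene Penk on 2 of 3 NAc arrays. In the mPFC each of them was above background on 2 of 3 arrays.

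Of 20802 genes tested, 1 passed an adjusted p of 0.05, which is 0.00481% of them (limma, two-sided, Benjamini-Hochberg), and it was lower in the NAc. The count depended on single arrays, at 19 without mPFC replicate 2, 3 without NAc replicate 1 and 2 without mPFC replicate 3, and it was 16 with array weights and 0 with only the 6 arrays fitted. A further look at unadjusted p under 0.05 gave 2018 genes (9.7%), where 1040 are expected by chance. Of these, 693 had higher values in the NAc (3.33% of genes tested) and 1325 lower values (6.37%). Without mPFC replicate 3 the count was 941, with 503 higher (2.42%) and 438 lower (2.11%). A gene was tested where all 3 arrays of at least 1 region were well above background. The 3092 genes that entered through the NAc only and the 1282 through the mPFC only are favoured to differ. Among the 16428 that passed in both regions, 325 had higher and 973 lower values at an unadjusted p under 0.05, and 297 and 284 without mPFC replicate 3. The array also moved the centre of the distribution. The median difference over all genes was -0.12 with all 6 arrays, 0.01 without mPFC replicate 3 and 0.00 with quantile normalization. The 3 arrays of one region did not overlap with the 3 of the other for 14.2% of genes, 1112 higher (5.35%) and 1850 lower (8.89%) in the NAc. Among the 16428 genes these counts were 690 and 1486. Values above 0 were found for 43.3% of all genes tested, and for 50.9% without mPFC replicate 3.

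The gene that passed was Msantd3, which encodes a nuclear protein with a Myb/SANT domain, a fold that often binds DNA. Its level was 0.08, 0.34 and 3.21 on the mPFC arrays and -6.16, -5.92 and -5.54 on the NAc arrays. All mPFC arrays were well above background and no NAc array was. Msantd3 thus entered the test through the mPFC only, where it is high, and this filter favours a difference. With no filter it was also the only gene to pass (adjusted p = 0.0065, limma). The means were 1.21 ± 1.74 and -5.87 ± 0.31 (SD, n = 3 each), the difference was -7.08 ± 0.93 (SE), and limma's adjusted p was 0.0039. Since the NAc signal was at background, only a bound holds, and Msantd3 was at least 28.6-fold lower in the NAc. Without mPFC replicate 3 the difference was -6.08. The other probe of the gene differed by -2.32. Msantd3 was above background on 1 of the 20 arrays of the other 6 groups, and its regional difference was 0.68 in naive wild-type mice, -0.29 in TLR-DKO mice after R-SDS and 1.91 in naive TLR-DKO mice.

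The 11 other named genes with the smallest p on the lower side, all without overlap of the groups, did not pass the adjusted threshold. Of them Cirbp, Kars and Gm5294 were above background on all 6 arrays. The others entered the test through the mPFC only, which favours a small p and a lack of overlap. Fam135a had levels of 1.31, 1.83 and 3.45 in the mPFC and -4.76, -5.23 and -5.50 in the NAc, where no array was above background. Its bound was at least 56.8-fold lower in the NAc (-7.36 ± 1.49, adjusted p = 0.19). Unlike Msantd3, Fam135a was above background on every TLR-DKO array after R-SDS, in both regions. Robo3, an axon guidance receptor gene, had levels of -3.06, -3.24 and -2.14 in the mPFC and -5.61, -4.98 and -5.25 in the NAc. It was dim in both regions, with none of the 3 NAc arrays above background (-2.47 ± 0.45, adjusted p = 0.13, at least 1.76-fold lower).

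Cemip, which encodes a protein that breaks down hyaluronan, had levels of -0.35, -0.23 and -1.14 in the mPFC and -2.91, -4.10 and -4.38 in the NAc (-3.22 ± 0.61, adjusted p = 0.13). Its second probe differed by -0.77. In the 6 other groups the mean level of Cemip lay between -4.06 and -2.15, so the stressed wild-type mPFC arrays were the highest of the series. Cirbp, the cold-inducible RNA-binding protein gene, gave 2.24, 2.54 and 3.24 in the mPFC and 0.92, 1.07 and 0.14 in the NAc, with all 6 arrays above background and no overlap (-1.97 ± 0.40, adjusted p = 0.19). Its mean was 2.34 in naive mPFC and 2.64 in naive NAc of wild-type mice, and 1.26 and 1.29 in the mPFC and NAc of TLR-DKO mice after R-SDS. The NAc arrays of stressed wild-type mice thus lay with the other stressed groups and the mPFC arrays with the naive groups. Kars, the lysyl-tRNA synthetase gene, had levels of 3.06, 3.10 and 6.07 in the mPFC and 1.68, -3.39 and -1.54 in the NAc (-5.16 ± 1.11, adjusted p = 0.25).

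The remaining lower genes were Cpeb1, a regulator of polyadenylation and translation (-2.39), Hoxd10, a homeobox gene of the posterior body axis (-2.49), Flnc, an actin cross-linking filamin (-1.55), Elmo3, a member of the engulfment and cell motility family (-1.88), Trcg1 (-3.12) and Gm5294 (-1.39). Each had an adjusted p of 0.13 or more. Elmo3 had a second probe at -0.50. Flnc, Hoxd10, Trcg1 and Elmo3 were above background on 1 of 3 NAc arrays each.

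**Figure D1:**
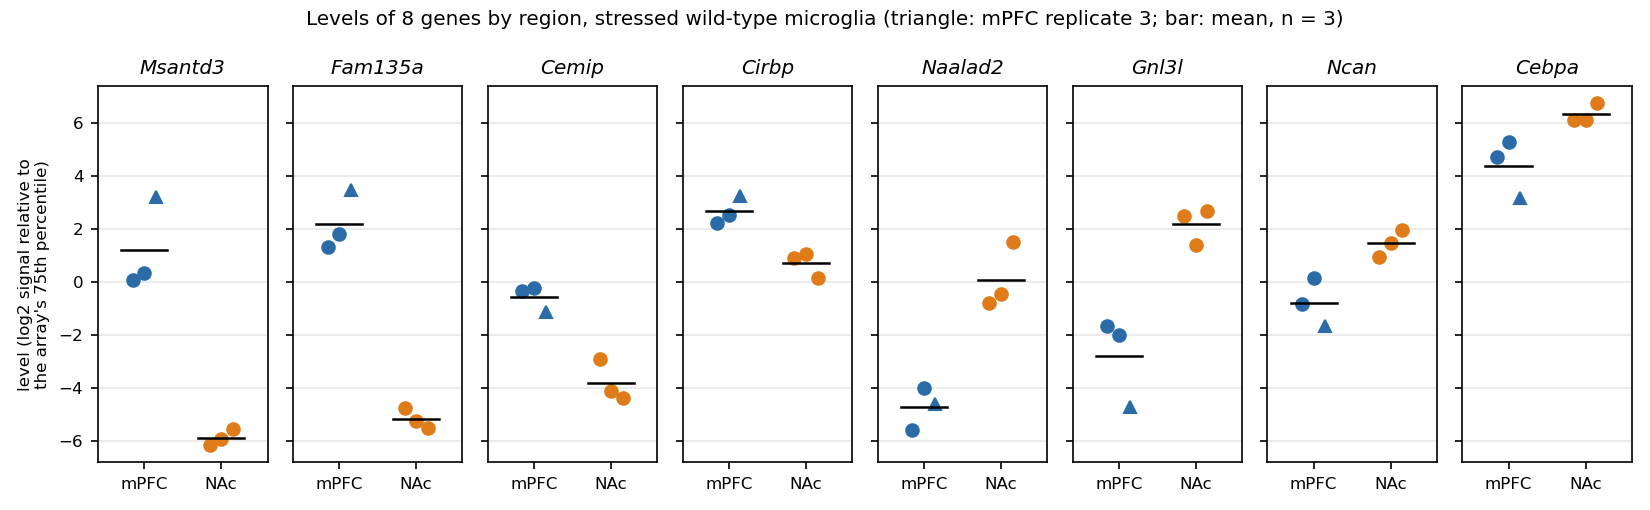
Levels of 8 genes on each of the 6 arrays (y axis, log2, centred on the 75th percentile of the array), with mPFC arrays in blue, NAc arrays in orange, mPFC replicate 3 as a triangle and a bar at each group's mean. Msantd3, Fam135a, Cemip and Cirbp are lower on every NAc array than on every mPFC array, and Naalad2, Gnl3l, Ncan and Cebpa are higher on every NAc array. Msantd3, Fam135a and Cemip passed the filter through the mPFC only, and Naalad2 and Gnl3l through the NAc only.

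On the higher side 12 named genes led by p among those whose groups did not overlap, and none passed. Of them Ncan, C1rl, Kansl1 and Atp2a2 were above background on all 6 arrays. The others entered the test through the NAc only, which favours a small p and a lack of overlap. Naalad2 encodes a membrane peptidase that splits the neuropeptide N-acetylaspartylglutamate and so frees glutamate. Its level was -5.56, -3.99 and -4.62 in the mPFC, where no array was above background, and -0.80, -0.44 and 1.52 in the NAc, where all were. It was at least 9.63-fold higher in the NAc (4.82 ± 1.14, adjusted p = 0.25). In TLR-DKO mice after R-SDS no mPFC array was above background either, and Naalad2 was at least 8.92-fold higher in the NAc. In naive wild-type and naive TLR-DKO mice 1 of 3 and 1 of 4 mPFC arrays measured it, and the fitted differences of 4.32 and 4.15 rest in part on background-level signals. Naalad2 was above background on 13 of 13 NAc arrays and on 2 of 13 mPFC arrays of the series. A single probe measured it, and all NAc arrays lie on their own slides.

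Ncan, the gene of the brain proteoglycan neurocan, had levels of -0.82, 0.15 and -1.67 in the mPFC and 0.94, 1.46 and 1.98 in the NAc (2.24 ± 0.53, adjusted p = 0.25). The 6 other groups had means between -1.40 and -0.76, so the stressed wild-type NAc arrays were the highest. Gnl3l, a nucleolar GTP-binding protein gene, was at -1.68, -2.01 and -4.70 in the mPFC and at 2.48, 1.42 and 2.66 in the NAc (4.98 ± 1.12, adjusted p = 0.25). C1rl, which encodes a protease related to complement C1r, was at 0.26, 0.56 and -0.10 in the mPFC and at 2.72, 2.03 and 3.52 in the NAc (2.52 ± 0.65, adjusted p = 0.31). Its difference was 1.81 in naive wild-type mice, 0.74 in TLR-DKO mice after R-SDS and -0.85 in naive TLR-DKO mice.

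The other genes of this set were Vmn1r174, a vomeronasal receptor (4.37, at least 4.70-fold), Ctps, a CTP synthase (4.31, at least 4.85-fold), Zscan21, a zinc finger factor (3.65), Kansl1, a subunit of a histone acetyltransferase complex (2.52), Gm4759 (2.37), Cyp2c55, a cytochrome P450 (1.91), Foxc1, a forkhead factor (1.90) and Atp2a2, the calcium pump of the endoplasmic reticulum (1.90). Their adjusted p ran from 0.25 to 0.32. The other probes of Atp2a2 and Gm4759 gave -0.19 and -0.41, so these 2 genes rest on one probe that its partner does not bear out.

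Perivascular macrophage markers were examined because these cells can enter the gate. Of 16 markers 11 were tested, of which 6 were well above background on all 6 arrays, 4 on all mPFC arrays but not on all NAc arrays, and 1 the reverse. Cbr2, the 1 of the NAc side, also had a lower mean in the NAc. The 4 entered only through the region where they are high and were favoured to differ, so the list is described through the 6. Of these, 5 had lower means in the NAc and their median difference was -0.82, beside -0.17 for the 16428 genes above background on both sides, of which 10053 lay below 0. Without mPFC replicate 3 the median of the 6 was -1.21, again with 5 below 0, beside 0.01 for those genes. None of the 6 reached an unadjusted p of 0.05. Fewer macrophages in the sort and less RNA per macrophage cannot be told apart in pooled cells.

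Siglec1, a sialic acid receptor gene of border macrophages, was at -2.95, -1.93 and -1.60 in the mPFC and at -3.00, -2.99 and -3.05 in the NAc, so that every NAc array was lower, the nearest by little (-0.85 ± 0.50). Stab1, a scavenger receptor gene, gave -0.78 ± 0.49, and -0.19 without mPFC replicate 3. The endocytic adaptor gene Dab2, the lectin gene Cd209f and Ms4a7 gave -1.97 ± 1.50, -1.33 ± 1.2 and -0.79 ± 1.45, with wide errors. The exception was Mgl2, a lectin gene, at 0.15 ± 0.44.

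Over all 11 the median was -1.89 (-3.02 without mPFC replicate 3), a value that the 4 members of the mPFC side lower. The summed signal of the 11 was 63.5 to 66.4 times the 75th percentile in the mPFC and 24.9 to 46.2 times in the NAc, with the same limit. The 4 are given as a description.

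F13a1, the coagulation factor XIII subunit expressed by these macrophages, had levels of 4.26, 2.67 and 3.42 in the mPFC and -0.56, -5.96 and -3.27 in the NAc, with 1 NAc array above background (-6.72 ± 2.01, adjusted p = 0.40). Its second probe gave -5.03. Clec4n, the gene of the lectin dectin-2, was at -1.21, -0.28 and 0.10 in the mPFC and at -3.38, -4.60 and -3.30 in the NAc (-3.30 ± 0.97, adjusted p = 0.39). Mrc1, the mannose receptor gene that defines these cells, was at 1.63, 1.31 and -0.96 in the mPFC and at -0.78, -5.65 and -1.47 in the NAc, where the groups overlapped (-3.29 ± 1.43, adjusted p = 0.49).

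The macrophage lectin gene Clec10a was at 3.03, 3.10 and 2.39 in the mPFC and at -0.14, -5.05 and 2.03 in the NAc, a wide spread within the NAc (-3.90 ± 2.22). F13a1, Clec4n, Mrc1 and Clec10a were above background on 1, 1, 2 and 2 of 3 NAc arrays. None of the 11 passed the adjusted threshold. The other 5 markers were not tested, and of these Timd4 was above background on 0 of the 6 arrays, while Cd163, Lyve1, Pf4 and Folr2 were above it on 1, 2, 2 and 2 of 3 mPFC arrays and on 0, 1, 2 and 1 of 3 NAc arrays.

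In the other comparisons, which use arrays of their own on the same slides, the 6 markers had medians of -1.56 in naive wild-type mice, -0.28 in TLR-DKO mice after R-SDS and -1.05 in naive TLR-DKO mice. Clec4n, of the mPFC side after stress, was at 1.58 in naive wild-type mice. For the interaction with stress 1 of the 11 members had an unadjusted p under 0.05 (3.38% of all genes), and for that with genotype 0 (3.1% of all genes).

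**Figure D2:**
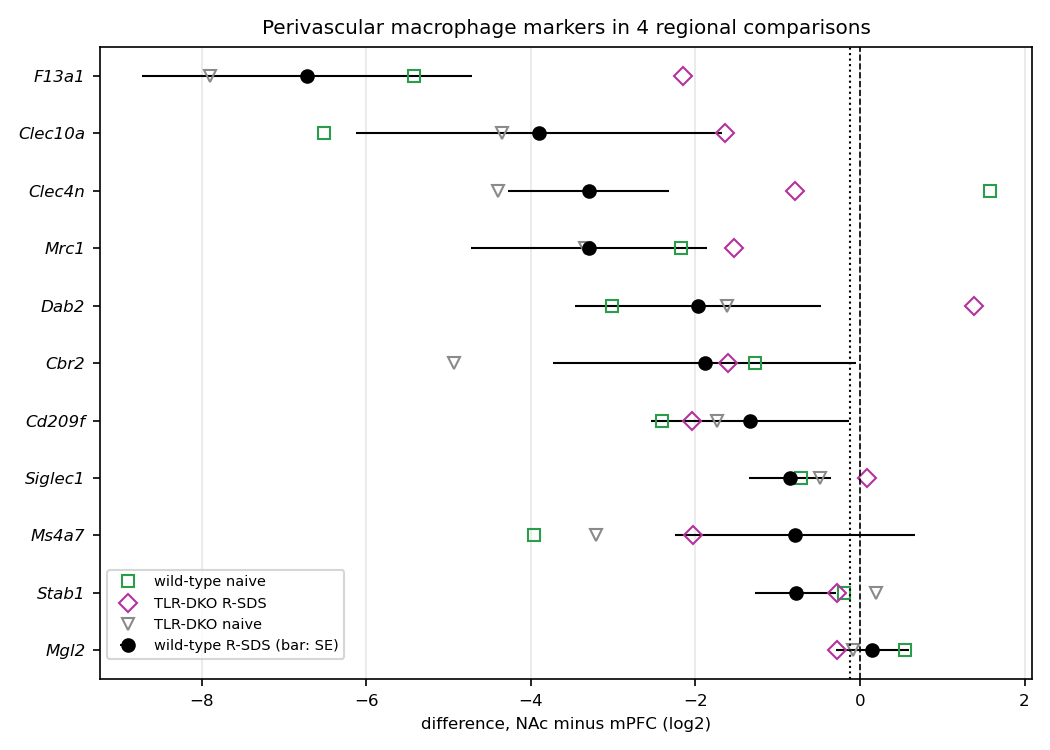
Regional difference (x axis, NAc minus mPFC, log2) of the 11 perivascular macrophage markers tested, with the stressed wild-type comparison as filled circles with SE bars and the naive wild-type, TLR-DKO R-SDS and naive TLR-DKO comparisons as open symbols. The dashed line marks 0 and the dotted line marks the median of all genes in the stressed wild-type comparison (-0.12). F13a1, Clec10a, Clec4n and Mrc1, at the top, passed the filter through the mPFC only. Of the 6 above background on all arrays, Mgl2 alone lies above 0 in the stressed wild-type comparison.

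Genes of antigen presentation, which border macrophages and activated microglia express, had 12 of 21 tested members below 0 and a median of -0.40 (near 0 without mPFC replicate 3). The other 9 lay above 0, up to 1.17, where 43.3% of all genes tested did. Without mPFC replicate 3, 10 of 21 lay above 0. The members named next are all from the lower side. The class II gene H2-Eb1 was at 0.21, -1.08 and 2.26 in the mPFC and at -2.77, -1.99 and -1.65 in the NAc, with no overlap (-2.60 ± 1.08, adjusted p = 0.48, and -1.70 without mPFC replicate 3). H2-Aa was at 0.52, 1.74 and 1.32 in the mPFC and at -3.28, -2.30 and 0.84 in the NAc (-2.77 ± 1.53, adjusted p = 0.57). The invariant chain gene Cd74 gave -1.66 ± 1.17, and the immunoproteasome gene Psmb10 gave -1.01 ± 0.50. Of the 6 perivascular macrophage markers above background on all arrays, 5 had lower means on the same NAc arrays, and their part in these values was not tested.

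Neuronal transcripts can reach sorted microglia as debris or as phagocytosed material. Of 12 tested pan-neuronal markers 8 were above background on all 6 arrays, and 3, Syn1 and Nefl among them, entered only through the mPFC and were favoured to differ. Of the 8, 6 lay below 0, with a median of -0.43 (-0.44 without mPFC replicate 3). Syn1, the synapsin I gene, was at 0.11, -0.33 and -1.98 in the mPFC and at -2.14, -3.94 and -3.33 in the NAc (-2.41 ± 0.78, adjusted p = 0.44). The neurofilament gene Nefl swung widely, at -0.06, 1.22 and 4.10 in the mPFC and at -5.94, 1.18 and -5.40 in the NAc (-5.14 ± 2.42, adjusted p = 0.51). Tubb3, a neuronal tubulin gene, gave -1.35 ± 0.83, while Snap25, a synaptic vesicle fusion gene, gave -0.48 ± 0.47.

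Of the cortical neuron markers 10 of 14 lay below 0 (median -0.76, and -0.32 without mPFC replicate 3). The neurogenic factor gene Neurod2 was at 1.95, 1.48 and 1.81 in the mPFC and at 0.68, 1.08 and 0.53 in the NAc, without overlap (-0.99 ± 0.33, adjusted p = 0.44), and gave -0.82 in naive wild-type mice. The corepressor gene Tle4 gave -3.02 ± 1.21, with its other probe at 1.24, and Neurod1 -1.11 ± 0.61. Striatal neuron markers had 8 of 15 above 0 (median 0.05, and -0.11 without mPFC replicate 3). Among them Drd2, the D2 dopamine receptor gene, gave -0.75 ± 0.76, the adenosine receptor gene Adora2a 0.34 ± 0.55, and the DARPP-32 gene Ppp1r1b 0.43 ± 1.05 with 1 NAc array at 0.66 and the other two at -2.80 and -2.12. Adcy5, a striatal adenylyl cyclase gene, gave -0.80 ± 0.35 and Syt6 -0.56 ± 0.31. The summed signal of the striatal list was 160 to 424 times the 75th percentile in the mPFC and 170 to 237 times in the NAc.

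For glia, 7 of 10 tested astrocyte markers lay below 0 (median -0.22), but 4 of 10 without mPFC replicate 3 (median 0.10), with Ncan as the highest, the glutamine synthetase gene Glul at -0.49 ± 0.32, Aldoc at -1.33 ± 0.83 and Gfap, the astrocyte filament gene, at -1.42 ± 0.92. Gfap stood at -2.26, -2.18 and 1.05 in the mPFC, with 1 high array, and the difference was -0.33 without it. Oligodendrocyte markers had a median of 0.01 over 13 members (0.17 without mPFC replicate 3). Olig1, a lineage factor, was at background on all mPFC arrays and above it on all NAc arrays (3.32 ± 1.13, at least 2.73-fold), while the myelin genes Mbp and Cnp gave -1.03 ± 0.95 and 2.10 ± 1.04, the latter -0.02 without mPFC replicate 3. Neither Olig1 nor Cnp was above background on all 6 arrays, and entry through 1 region favours a difference. Endothelial and mural markers had a median of -0.21 over 9 members (-0.12 without mPFC replicate 3), with Acta2 at -1.36 ± 1.00, and Cldn5, the tight junction gene, was above background on 2 of 3 arrays in each region and not tested. Among 9 monocyte and neutrophil markers the median was -0.15, with Cd177 at 1.19 ± 0.65 and Lyz1 at -1.42 ± 0.45, and the monocyte receptor gene Ccr2 was above background on 1 of 3 mPFC and 0 of 3 NAc arrays. Of 6 tested B cell markers 3 entered only through the mPFC, and the 3 above background on all 6 arrays were Pax5 at -0.95 ± 0.45 (its other probe at 0.22), Bank1 at -2.11 ± 1.14 (-0.77 without mPFC replicate 3) and Cd22 at -0.19 ± 0.33. T and NK cell markers had a median of 0.40 over 11, with Gzma at 0.85 ± 0.48 and Cd4 at 0.72 ± 0.44. The 3 ependymal and choroid plexus markers tested had a median of -0.45 (-0.27 without mPFC replicate 3).

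Homeostatic microglia genes, which mark resting microglia, had 19 of 24 members below 0 and a median of -0.38, and the values differed most on 1 array. The list's median deviation was 0.92 on mPFC replicate 3, -0.01 and -0.21 on the other mPFC arrays, and -0.37, -0.29 and 0.13 on the NAc arrays. Without that array the median was -0.03. Tmem119, a microglia surface gene, had levels of 7.03, 6.86 and 7.97 in the mPFC and 6.94, 6.66 and 6.78 in the NAc (-0.50 ± 0.27, and -0.15 without mPFC replicate 3). The purine receptor gene P2ry12 gave -0.50 ± 0.33 and the CSF1 receptor gene Csf1r -0.70 ± 0.39 (-0.27 and -0.21 without mPFC replicate 3), both with overlapping groups. Trem2, a lipid-sensing receptor gene, was the member with the smallest p, at 8.46, 8.14 and 9.31 in the mPFC and 7.92, 8.0 and 7.93 in the NAc, without overlap (-0.69 ± 0.32, adjusted p = 0.50, and -0.35 without mPFC replicate 3). Tgfbr1, the receptor gene of a cytokine that maintains microglia, went the other way at 0.58 ± 0.31.

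Lineage transcription factors were spread around 0, with 10 of 18 above it (median 0.08, and 0.22 without mPFC replicate 3). Cebpa, a myeloid factor gene, had levels of 4.71, 5.30 and 3.17 in the mPFC and 6.11, 6.12 and 6.75 in the NAc, without overlap (1.93 ± 0.58, adjusted p = 0.40). Its difference was 1.32 without mPFC replicate 3, 1.27 in naive wild-type mice, 0.46 in TLR-DKO mice after R-SDS and 0.21 in naive TLR-DKO mice. Etv5 gave 0.50 ± 0.26, and Sall1, the factor that defines microglia, gave 0.23 ± 0.29 with levels between 4.47 and 5.04 on all 6 arrays.

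Genes of the disease-associated state, which microglia take up around damaged tissue, had 16 of 22 members below 0 (median -0.54, and -0.24 without mPFC replicate 3). The tetraspanin gene Cd63 was at 4.29, 4.16 and 5.36 in the mPFC and 3.69, 3.33 and 3.88 in the NAc (-0.97 ± 0.30, adjusted p = 0.42, and -0.59 without mPFC replicate 3). Apoe, the apolipoprotein gene, gave -1.19 ± 0.82 with overlapping groups, and the fatty acid carrier gene Fabp5 gave 2.31 ± 0.90, above on every NAc array. Complement and phagocytic receptor genes had a median of -0.07 (0.09 without mPFC replicate 3), with the Fc receptor chain gene Fcer1g at 7.83, 7.23 and 7.55 in the mPFC and 6.92, 6.42 and 6.60 in the NAc (-0.89 ± 0.39).

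**Figure D3:**
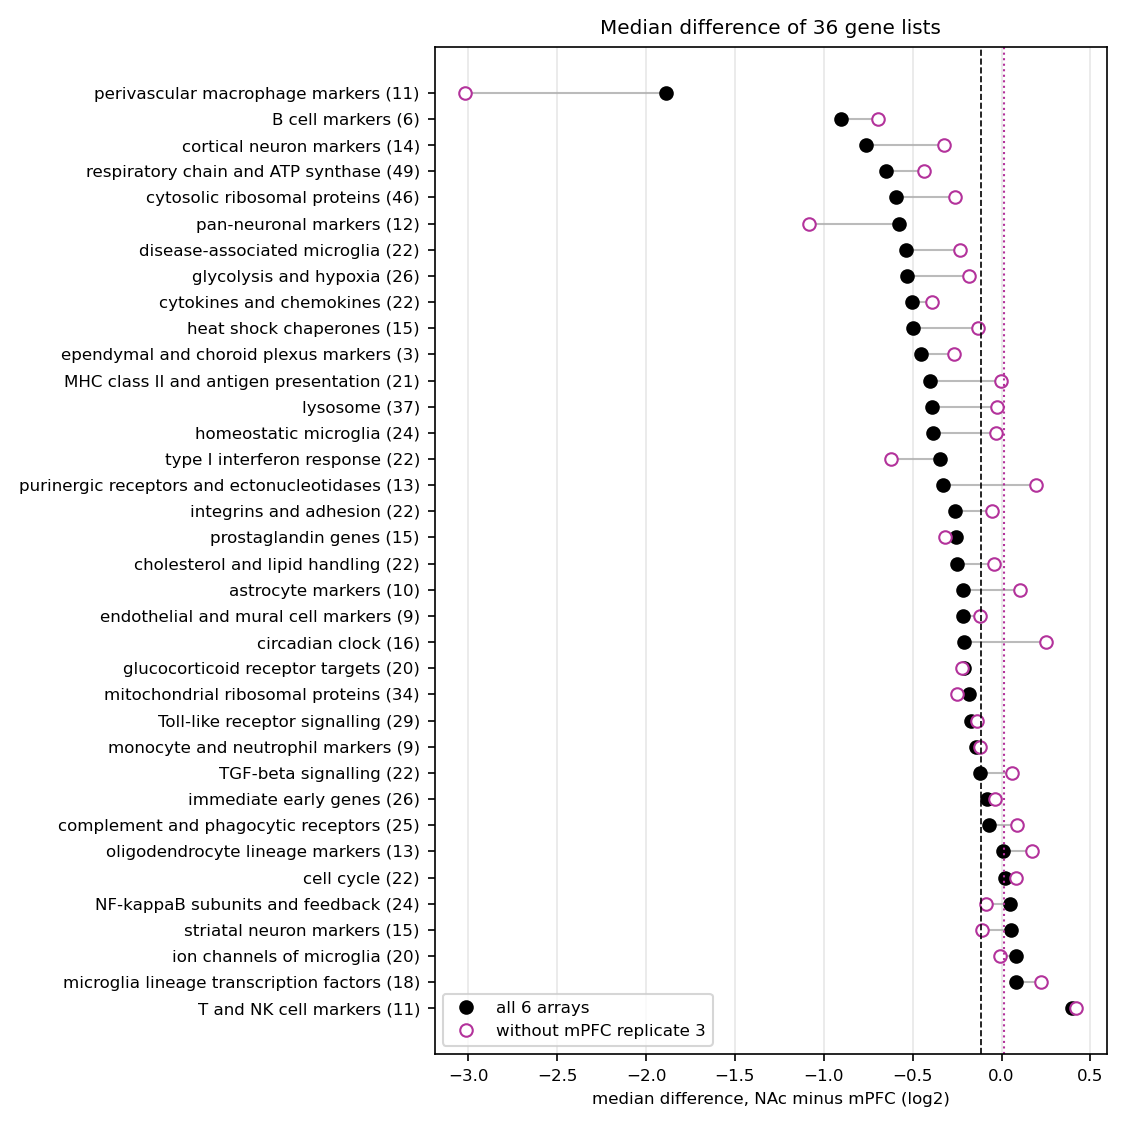
Median regional difference (x axis, NAc minus mPFC, log2) of each of the 36 gene lists, with all 6 arrays as filled circles and without mPFC replicate 3 as open circles, and the number of tested members in brackets. Vertical lines mark the median of all genes tested, -0.12 with all arrays (dashed) and 0.01 without mPFC replicate 3 (dotted). Perivascular macrophage markers, of which 4 of 11 passed the filter through the mPFC only, lie lowest, and the homeostatic and lysosome lists move to about the median of all genes when the array is left out.

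Microglia of both regions came from mice killed soon after a defeat session, so genes of the acute response were examined. Immediate early genes, transcribed within minutes of a stimulus, had 11 of 26 members above 0 and a median of -0.08. Fos was at 5.82, 4.94 and 5.31 in the mPFC and 4.06, 5.39 and 5.06 in the NAc (-0.52 ± 0.61), Egr1 gave 0.16 ± 0.52 and Klf4 -0.30 ± 0.85. Set against naive mice of their own region, the same list had medians of 1.21 in the mPFC and 0.98 in the NAc, which share the stressed arrays with this comparison. Glucocorticoid receptor targets had 13 of 20 below 0 (median -0.21). Tsc22d3, the gene of the steroid-induced protein GILZ, was at 5.95, 5.70 and 6.30 in the mPFC and 5.59, 6.01 and 5.67 in the NAc (-0.23 ± 0.46). The co-chaperone gene Fkbp5 gave -0.60 ± 0.48, the mTORC1 inhibitor gene Ddit4 -0.23 ± 0.62 and the metallothionein gene Mt1 -1.14 ± 0.54.

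Heat shock chaperones had a median of -0.50 (-0.13 without mPFC replicate 3). Dnajb4, a co-chaperone gene of Hsp70, was at 2.72, 2.15 and 1.00 in the mPFC and at 1.1, 0.04 and -0.60 in the NAc (-1.78 ± 0.71), and the constitutive chaperone gene Hspa8 gave -0.74 ± 0.34. Clock genes had 12 of 16 below 0 (median -0.21), but 7 of 16 without mPFC replicate 3 (median 0.25), led by Cirbp, with Ciart at 2.09 ± 0.97. Ciart was above background on 1 of 3 mPFC arrays and entered through the NAc only.

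Cytokines and chemokines had 14 of 22 members below 0, with a median of -0.50, and 16 of 22 below 0 with a median of -0.39 without mPFC replicate 3. Ccl3, a chemokine that attracts myeloid and T cells, was at 5.56, 5.13 and 5.72 in the mPFC and at 3.90, 4.34 and 4.56 in the NAc, so that every NAc array was lower (-1.20 ± 0.46, adjusted p = 0.47). The regional difference of Ccl3 was -0.77 in naive wild-type, -0.51 in stressed TLR-DKO and -0.53 in naive TLR-DKO mice. Its relative Ccl4 gave -0.62 ± 0.62 with overlap. The interleukin genes Il1a, Il1b and Il18 gave -0.55 ± 0.89, -0.72 ± 1.16 and -1.48 ± 0.80, and Tnf gave 0.47 ± 1.09. For Il1a, Il1b and Tnf the SE exceeded the difference.

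Cxcl10, a chemokine induced by interferon, was at 1.18, 1.31 and 4.14 in the mPFC and at -0.20, -0.39 and 1.18 in the NAc (-2.01 ± 0.82, adjusted p = 0.48), and the difference was -1.05 without mPFC replicate 3. Interferon response genes had 16 of 22 members below 0 and a median of -0.35, which was -0.62 without mPFC replicate 3. Of the 22, 4 entered through the mPFC only and 3 through the NAc only. The 15 above background on all 6 arrays had a median of -0.17, the same as all genes above background on both sides (-0.17). Without mPFC replicate 3 these medians were -0.43 and 0.01. Irf7, the factor that amplifies interferon induction, was at -1.03, -0.25 and -1.14 in the mPFC and at -3.72, -2.99 and -2.16 in the NAc, without overlap (-2.15 ± 0.67, adjusted p = 0.42). The RNA sensor gene Ddx58 and the antiviral gene Rsad2 gave -1.56 ± 0.67 and -1.47 ± 0.69. In naive wild-type mice the list's median was 0.19, with Irf7 at -1.93, and 1 of 22 members had an unadjusted p under 0.05 for the difference between stressed and naive mice (3.38% of all genes). Cxcl10, which belongs to the cytokine list, was at 1.29 in naive wild-type mice.

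Interferon acts through a promoter element called ISRE. The 250 bases before the start site of Cxcl10 and Rsad2, a chemokine gene and an interferon-list gene with lower values in the NAc, are shown with the match to the element (GAAA, any 2 bases, GAAA) in capitals, on the strand given by RefSeq (GRCm38.p6), and Hilpda, described further on, is shown with the hypoxia response core (ACGTG or GCGTG) in capitals. The region of Cxcl10 is chr5:92348890-92349139 on the minus strand, that of Rsad2 is chr12:26456453-26456702 on the minus strand and that of Hilpda is chr6:29272376-29272625 on the plus strand.
Cxcl10: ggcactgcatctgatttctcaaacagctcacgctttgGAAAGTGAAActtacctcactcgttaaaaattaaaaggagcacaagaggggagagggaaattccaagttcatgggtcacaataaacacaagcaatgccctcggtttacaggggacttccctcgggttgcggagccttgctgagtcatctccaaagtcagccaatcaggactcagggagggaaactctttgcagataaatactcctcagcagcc
Rsad2: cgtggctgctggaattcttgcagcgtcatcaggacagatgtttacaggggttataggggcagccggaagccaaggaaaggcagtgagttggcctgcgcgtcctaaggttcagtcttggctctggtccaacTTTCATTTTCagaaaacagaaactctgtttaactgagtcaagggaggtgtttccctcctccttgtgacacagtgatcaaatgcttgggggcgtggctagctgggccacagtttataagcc
Hilpda: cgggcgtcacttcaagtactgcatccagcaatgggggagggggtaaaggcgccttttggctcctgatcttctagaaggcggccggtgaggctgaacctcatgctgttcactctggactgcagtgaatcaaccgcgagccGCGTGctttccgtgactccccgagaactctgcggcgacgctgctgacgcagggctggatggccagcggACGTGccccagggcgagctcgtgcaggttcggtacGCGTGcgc
Both strands were searched. The match in Cxcl10 begins 213 bases before the start site and that in Rsad2, which lies on the opposite strand, 120 bases before it. Of 32851 promoters 2.98% hold the element in these 250 bases, and 7 of the 16 tested genes of the interferon list with a listed promoter hold it, Rsad2 among them. Those 7 had a median difference of -0.17 (5 below 0), and the 9 without it -0.95 (7 below 0). The hypoxia core occurs in 38.6% of all promoters and 3 times in the promoter of Hilpda shown, which is 1 of 2 listed for that gene.

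Toll-like receptor signalling genes had 18 of 29 members below 0 and a median of -0.17, near that of all genes. The adaptor gene Tirap was at 0.78, 0.06 and -0.08 in the mPFC and at -0.94, -3.53 and -2.52 in the NAc (-2.59 ± 1.08, adjusted p = 0.48). Tirap was above background on 2 of 3 NAc arrays and entered through the mPFC only. Tlr9, the DNA-sensing receptor gene, was at 4.60, 4.64 and 4.15 in the mPFC and at 5.05, 5.12 and 5.40 in the NAc, above on every array (0.73 ± 0.34, adjusted p = 0.51). Tlr2 and Tlr4, the receptor genes that TLR-DKO mice are described as lacking, gave -0.56 ± 0.40 and 0.52 ± 0.54 with overlapping groups. NF-kappaB subunits and feedback genes had a median of 0.05 over 24 members (-0.09 without mPFC replicate 3). Of the 24, 3 entered through the NAc only, among them the deubiquitinase gene Cyld at 1.94 ± 0.88. Cyld was above background on 2 of 3 mPFC arrays. The 21 members above background on every array of both regions had a median of -0.30 (-0.14 without mPFC replicate 3). Prostaglandin genes had a median of -0.26.

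Respiratory chain and ATP synthase genes, which supply oxidative energy, had 42 of 49 members below 0 with a median of -0.65, all 49 above background on all 6 arrays. Without mPFC replicate 3 it was 39 of 49 with a median of -0.44, where 50.9% of all genes lay above 0, so the list stood lower with and without that array. Ndufb3, a complex I subunit gene, was at 3.60, 3.29 and 3.14 in the mPFC and 2.64, 2.01 and 2.24 in the NAc (-1.05 ± 0.29, adjusted p = 0.32). Uqcrc2 of complex III was at 3.82, 3.94 and 4.13 in the mPFC and 2.69, 2.88 and 2.06 in the NAc (-1.42 ± 0.42, adjusted p = 0.38). Atp5b, the catalytic subunit gene of ATP synthase, was at 3.76, 3.47 and 4.96 in the mPFC and 2.95, 2.59 and 2.66 in the NAc (-1.33 ± 0.40, adjusted p = 0.40, and -0.88 without mPFC replicate 3). All 3 had no overlap. At an unadjusted p under 0.05, 9 of the 49 had lower values, where 6.37% of all genes did, and 0 had higher ones, where 3.33% did. Without mPFC replicate 3 it was 6 lower (2.11% of all genes) and 0 higher (2.42%). In the other regional comparisons the list lay near 0, with medians of -0.14, -0.12 and -0.07 in naive wild-type, stressed TLR-DKO and naive TLR-DKO mice.

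Cytosolic ribosomal protein genes had 44 of 46 members below 0 and a median of -0.59. The list stood high on mPFC replicate 3, with a deviation of 1.00 on that array and -0.05 and -0.01 on the other mPFC arrays, and without it the median was -0.26 with 39 of 46 below 0. Rpsa, Rps2 and Rps16 gave -1.31 ± 0.42, -1.15 ± 0.45 and -1.24 ± 0.54, each without overlap. Ribosomal protein genes have many near-identical pseudogenes, and the 3 other probes of Rpsa gave 1.29, -1.18 and -0.15. Mitochondrial ribosomal protein genes had a median of -0.18 over 34 members.

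Lysosome genes, which serve the degradation of engulfed material, had 27 of 37 members below 0 (median -0.39), but 20 of 37 and a median of -0.03 without mPFC replicate 3. Lyz1, a lysozyme gene, was at 2.35, 1.74 and 2.87 in the mPFC and 0.66, 0.48 and 1.56 in the NAc (-1.42 ± 0.45, adjusted p = 0.42). Npc2, a cholesterol carrier of the lysosome, gave -0.76 ± 0.27 and the peptidase gene Tpp1 -1.13 ± 0.45. Among genes of cholesterol and lipid handling, 13 of 22 lay below 0 (median -0.25, and -0.04 without mPFC replicate 3), with the desaturase gene Scd2 at 1.68 ± 0.66 and Apoc1 at -1.26 ± 0.56. Apoc1 was above background on 2 of 3 NAc arrays and entered through the mPFC only.

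Glycolysis and hypoxia genes had 20 of 26 members below 0 and a median of -0.53 (-0.18 without mPFC replicate 3). Hilpda, a hypoxia-inducible protein gene of lipid droplets with a promoter given above, was at 2.11, 1.57 and 4.19 in the mPFC and at -0.30, -0.71 and -0.82 in the NAc (-3.23 ± 1.40, adjusted p = 0.49). Its second probe gave -3.41. In naive wild-type mice the order was the reverse, with no mPFC array above background, so that only a bound holds and Hilpda was at least 13.1-fold higher in the NAc. The fitted interaction of -9.24 ± 1.98 takes the background-level signal at its value and is no bound. It did not pass over all arrays (adjusted p = 1.00, limma) and passed with the wild-type arrays alone (adjusted p = 0.0099). The glycolytic genes Ldha and Aldoa gave -1.35 ± 0.55 and -1.13 ± 0.52, and -0.57 and -0.28 without mPFC replicate 3. The other probes of Ldha gave 0.21 and -0.33.

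**Figure D4:**
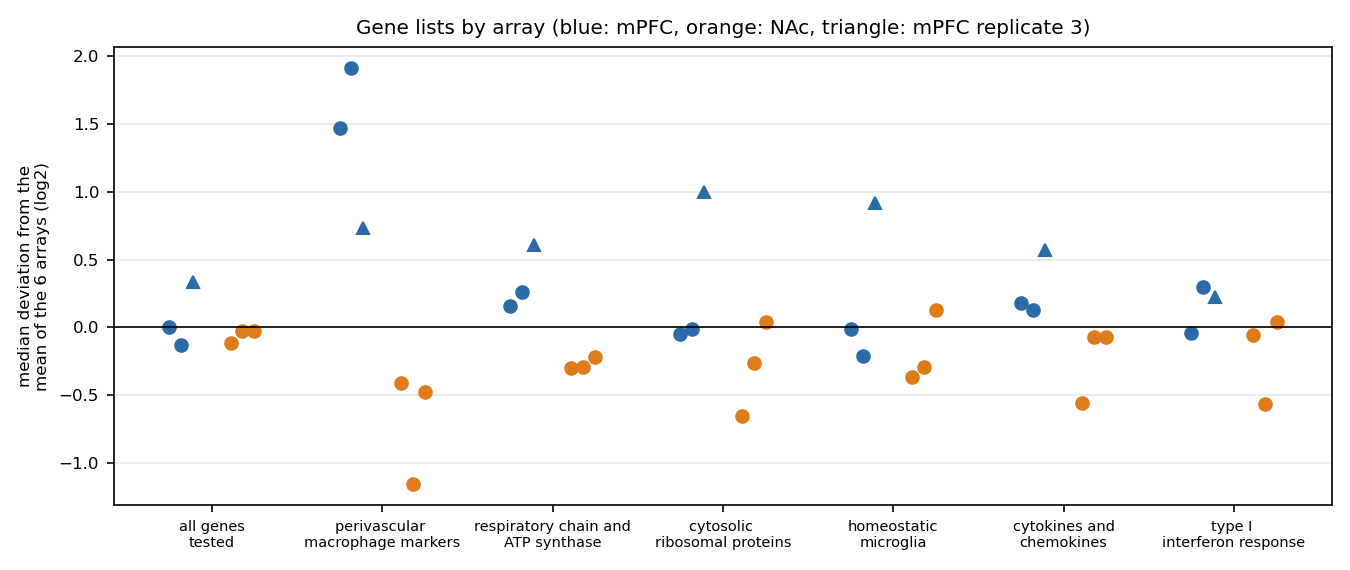
Median deviation of 6 gene lists and of all genes from the mean of the 6 arrays (y axis, log2), 1 point per array, with mPFC arrays in blue, NAc arrays in orange and mPFC replicate 3 as a triangle. Perivascular macrophage markers (4 of 11 measured above background through the mPFC only), respiratory chain genes and cytokines have lower medians on every NAc array than on every mPFC array, while homeostatic and ribosomal genes stand high mainly on mPFC replicate 3.

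Surface and signalling lists lay close to all genes. Integrin and adhesion genes had a median of -0.26 (-0.05 without mPFC replicate 3), with Vcam1, an adhesion receptor gene, at 2.11, 1.33 and 2.07 in the mPFC and -0.88, -2.75 and 0.51 in the NAc (-2.88 ± 1.30, adjusted p = 0.50). The difference of Vcam1 was -2.87 in naive wild-type, -2.43 in stressed TLR-DKO and -0.25 in naive TLR-DKO mice, and its other probe gave -0.54. Purinergic genes had a median of -0.33, 0.19 without mPFC replicate 3, with P2rx7 at -0.63 ± 0.42 and no overlap. TGF-beta signalling genes had a median of -0.12 (0.06 without mPFC replicate 3), with Smad4 at -1.41 ± 0.62, which was -0.42 without mPFC replicate 3. Ion channels of microglia had a median of 0.08, and cell cycle genes 0.02 with the proliferation marker Mki67 at 1.69 ± 0.76. Mki67 was above background on 1 of 3 mPFC arrays and entered through the NAc only.

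The interaction with stress asked whether the regional difference after R-SDS differed from that in naive mice, and 0 of 20802 genes passed (smallest adjusted p = 0.16, limma), with 704 (3.38%) at an unadjusted p under 0.05. The smallest p belonged to Msantd3 (-7.76 ± 1.31, adjusted p = 0.16), which was at background in naive mice of both regions, followed by Hilpda, Cemip (-3.70 ± 0.86) and Bex1, a small neuronal adaptor gene (-3.05 ± 0.71), and an unnamed intergenic probe. Msantd3, Cemip and Bex1 entered the test through the mPFC only. Bex1 was above background on 0 of 3 stressed NAc arrays and on 1 of 3 naive mPFC arrays of wild-type mice. The fitted interactions of Msantd3, Hilpda and Bex1 take background-level signals at their value and are no bounds. The interaction with genotype, which compares the difference in stressed wild-type mice with that in stressed TLR-DKO mice, also gave 0 (smallest adjusted p = 0.59), with 644 (3.1%) at an unadjusted p under 0.05. Msantd3 led again (-6.79 ± 1.27), with Cemip (-3.85 ± 0.83), Stard5, a cholesterol-binding protein gene (-4.76 ± 1.09), and 2 unnamed probes. Msantd3 was at background in stressed TLR-DKO mice of both regions too, so its value is no bound here either. With all the wild-type stressed mice labelled susceptible and the TLR-DKO ones resilient, genotype and outcome cannot be told apart there.

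Across comparisons the direction was shared more often than not. Of the 2018 genes at an unadjusted p under 0.05, 74.0% had the same sign in naive wild-type mice, 68.9% in stressed TLR-DKO mice and 70.9% in naive TLR-DKO mice, where 61.7%, 60.2% and 60.6% of all genes did. These comparisons use different arrays on the same 4 slides. In the naive wild-type, stressed TLR-DKO and naive TLR-DKO comparisons 0 genes passed, with 1003, 432 and 1623 at an unadjusted p under 0.05 (4.82%, 2.08% and 7.8%). A set of 23 genes had an unadjusted p under 0.05 and the same sign in all 4 comparisons, a rule chosen after values were seen. Of these 22 were lower in the NAc, and only Naalad2 was higher. Of the 23, 11 carried a RefSeq name, among them Robo3, Neurog1, a neurogenic factor gene (-1.71, and -1.55, -1.29 and -1.62 in the other 3), Osbp2, an oxysterol-binding protein gene (-0.98), and the olfactory receptor genes Olfr1419 and Olfr763 (-2.11 and -1.21). Of the 23, 13 were above background on all 6 arrays, Olfr763 among them. Robo3, Neurog1, Olfr1419 and Osbp2 entered the test through the mPFC only, which favours a small p. No NAc array of stressed or naive wild-type mice measured Neurog1, so only bounds hold there. Neurog1 was at least 2.20-fold lower in the NAc of stressed and 2.15-fold lower in that of naive wild-type mice.

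**Figure D5:**
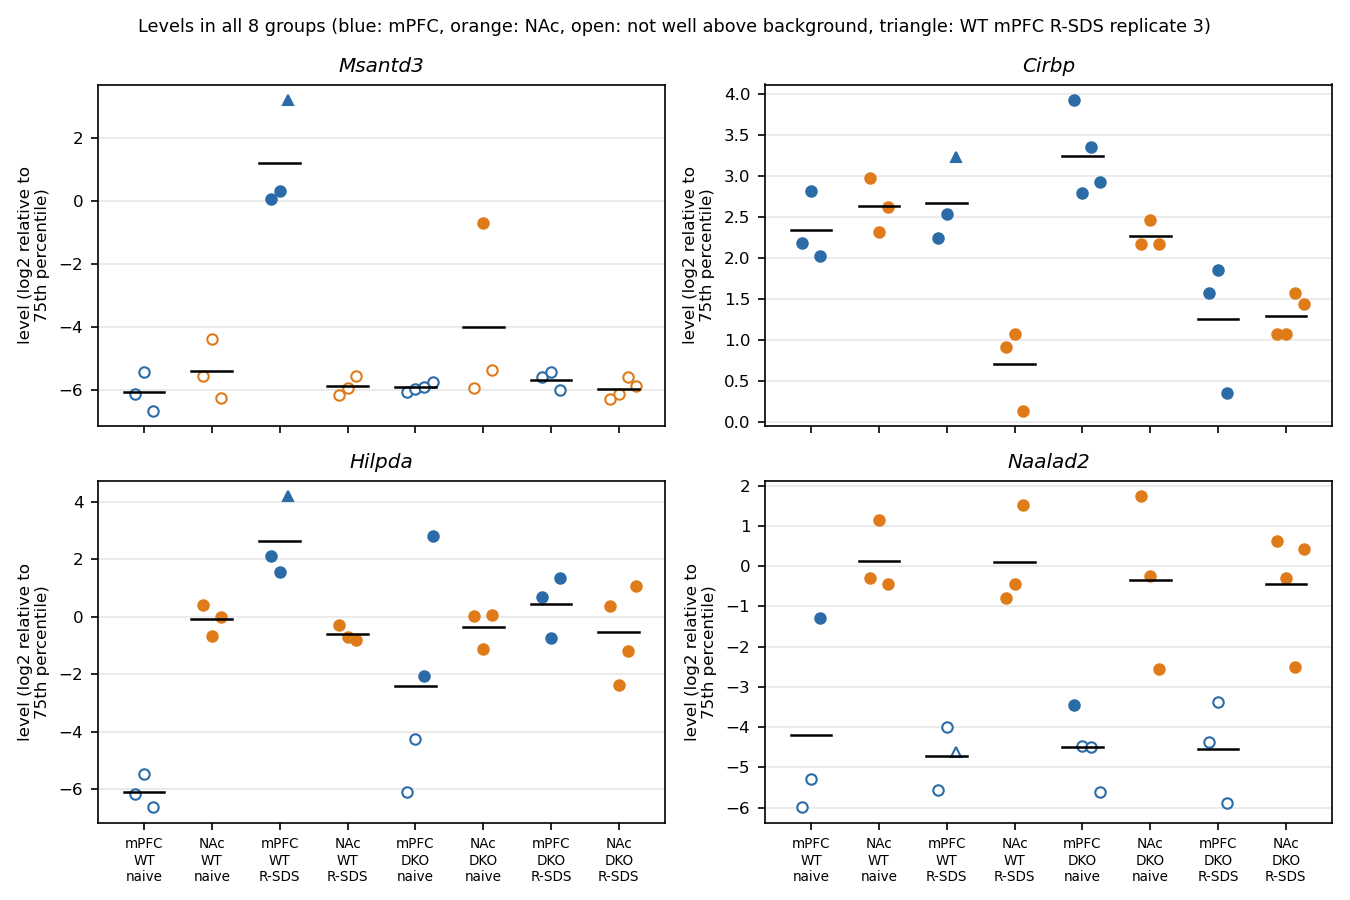
Levels of Msantd3, Cirbp, Hilpda and Naalad2 on all 26 arrays by group (y axis, log2, centred on the 75th percentile of the array), with filled points well above background, open points not above it and a bar at each group's mean. Msantd3 is above background on the 3 stressed wild-type mPFC arrays and on 1 other array, and Naalad2 is higher on NAc arrays in each of the 4 pairs of groups.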

How the data were processed

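The deposited scanner files hold 1-colour (Cy3) Agilent intensities, extracted with Agilent Feature Extraction per the file headers, and the processed signal column was used. Control spots were left out and spots of one probe were averaged. Each array's 75th percentile was subtracted from log2 of the processed signal, and a gene was represented by its brightest probe. Genes well above background on all 3 arrays of at least 1 of the groups were tested, 20802 in all, of which 11946 carry a RefSeq name (GRCm38.p6 table). limma 3.58.1 in R 4.3.3 was fitted to 26 arrays as 8 group means, with Benjamini-Hochberg adjustment. Where the labels do not say that replicates came from separate pools, p-values measure the spread between these samples only. The named genes are the 12 smallest p in each direction without overlap, the leading members of each list, a fixed panel and the leading interaction genes, and others were named after their values were seen. Members and lists were chosen with earlier results of these data known. Alternatives were array weights, other centring and quantile normalization, normexp on the median signal in place of the mean signal, other filters and array sets, slide, scan day or replicate as a block, the deposited log2 value table, and each array left out. Fits were tested on simulated data.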

Additional observations from a re-analysis of the deposited data

How the results depend on the processing

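The count of 1 gene that passed was 16 with array weights, 2 with normexp and quantile normalization, 2 with only the R-SDS arrays, and 0 with normexp and the 75th percentile, with only the 6 arrays and with the genes above background on all 6 arrays, where Msantd3 is not tested. Leaving out 1 array gave 1 to 19, with 19 without mPFC replicate 2, 3 without NAc replicate 1 and 2 without mPFC replicate 3, and the cause was not tested. Msantd3 had an adjusted p of 0.056 (limma) with normexp and the 75th percentile and 0.39 with only the 6 arrays. The interaction with stress gave 1 gene with only the wild-type arrays (Hilpda) and 2 within scan day 1 (Rnf141 and Msantd3). Same-numbered arrays of the regions had deviations that correlated at 0.03, 0.03 and 0.11, and arrays of unlike number at -0.08 to 0.07. These values cannot tell whether same-numbered arrays share mice, which the labels do not say. The fit with a replicate block called 1 gene. Within scan day 2, with 1 array per region, values have no test. Signs turned with array weights for Ddit4 (0.51), and with median centring for Cd22 (0.0026). They also turned with normexp and quantile normalization for Cd22 (0.10), Ddit4 (0.051) and Tsc22d3 (0.058), with quantile normalization for Cd22 (0.061), Ddit4 (0.028) and Tsc22d3 (0.070) and within scan day 1 for Cd22 (0.063), Ddit4 (0.38) and Tnf (-0.066). Values of the opposite sign were found within scan day 2 for Adora2a (-0.46), Apoe (1.11), Egr1 (-0.067), Mgl2 (-0.10), Ms4a7 (2.08), Ppp1r1b (-0.67), Psmb10 (0.50), Sall1 (-0.0095) and Tlr2 (0.77). With 1 array left out, the sign turned for Acta2 (-2.13 to 0.16), Cnp (-0.017 to 3.35), Cx3cr1 (-0.61 to 0.19), Ddit4 (-0.83 to 0.42), Egr1 (-0.070 to 0.53), Fkbp5 (-1.05 to 0.16), Il1a (-0.90 to 0.017), Klf4 (-0.96 to 0.38), Mgl2 (-0.27 to 0.56), Ms4a7 (-2.22 to 0.10) and Ppp1r1b (-0.61 to 1.12). The genes whose sign turned did not pass the adjusted threshold. Without mPFC replicate 3, 37 of 125 named genes had differences smaller by over 1.5 times or of the other sign, and 6 had larger ones by that factor. Slide and region cannot be told apart, and 3 pooled samples a group limit the precision.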
